A study of Polypedilum vanderplanki with 84 samples.

Results

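A set of 78 genes of Pv11 cells, of 18248 genes in the table, carried more RNA after 24 h in NaCl than in untreated cells while their level hardly rose after 24 h in trehalose. Pv11 is a cell line of the sleeping chironomid *Polypedilum vanderplanki*, an African midge whose larvae survive complete drying. The genes were chosen by their measured values. A gene's level is its TPM (a share of the RNA of a library, corrected for transcript length) summed over its transcripts. From 17111 numbered genes outside the ones set aside, 8756 had a mean of 1 to 1000 TPM over the 84 libraries. Among these, 684 had a NaCl over Control ratio of group means (with 1 TPM added to each) of at least 2 at 24 h. A Trehalose over Control ratio below 1.3 at 24 h left 288, a Heat over Control ratio below 2 at 1 h left 282, and a highest over lowest ratio below 3 across the 10 groups of the drying time course left 78. Numbers g16168 to g16208, a cluster that the study treats on its own, and 5 further genes had been set aside. The planned limit of 150 genes was not reached, so the set ends at the ratio of 2. The last genes inside were g2767, with a ratio of 2.05, and g8906, with 2.01, and the first outside were g7404 and g8294, with 1.98 each.

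All groups were Pv11 cells with 3 replicate libraries per group, described by the study as biological replicates. In the stress experiment (54 libraries, 18 groups), cells were held in NaCl (0.5% in the labels), in 600 mM mannitol, in 600 mM trehalose or with 20 µM paraquat, or were heated to 42 °C for 15 min, and were sampled after 1, 3 and 24 h beside untreated Control cells of the same times. The supplementary methods of the study give the same concentration of NaCl as the labels, and its main methods print another. The doses of salt, sugar alcohol and sugar are in different units and were not converted. In the time course (30 libraries, 10 groups), cells were preconditioned in 600 mM trehalose (PreCondTre) and sampled at 0, 12, 24, 36 and 48 h, then dried and sampled after 0, 3, 12, 24 and 72 h of Rehydration. No cell type markers could be checked, since the files and the tables used here pair none of these gene IDs with names. For the same reason the genes are given by number only, with no function, position or sequence.

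NaCl, mannitol and trehalose all draw water out of a cell when added to its medium, but they differ once there. Sodium and chloride cross the membrane through channels and carriers, and cells spend energy to pump sodium back out. Mannitol is a sugar alcohol used as an osmolyte that many animal cells take up poorly. Trehalose is the main blood sugar of insects and the sugar that protects drying *P. vanderplanki*, and the cells take it up through a carrier. Paraquat makes reactive oxygen inside cells, and heat unfolds proteins, so both served as stresses without an osmotic component. The comparisons below ask whether genes raised by salt and not by trehalose at 24 h responded earlier, and whether the other stresses moved them.

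Libraries of 1 group differed in a way that ran through many of the 78 genes. At NaCl 1 h, replicate 2 held the lowest TPM of its group for 66 of the 78 genes, and its summed TPM over the set was 2362, against 3727 and 3840 in the other replicates. Its size factor, the median ratio of its genes to the average library, was 0.671, against 0.923 and 0.959, and the 100 most abundant genes took 57.4% of its TPM, against 49.5% and 48.9%. At Control 3 h, replicate 1 was lowest for 58 genes and replicate 2 highest for 55, with size factors of 1.00 and 1.51. At NaCl 3 h, replicate 1 was lowest for 54 genes and replicate 2 highest for 63, with size factors of 0.592 and 0.773. Over the stress libraries, the SD within groups on the log2(TPM + 1) scale had a median of 0.27 across the 78 genes, from 0.087 (g432) to 0.69 (g8907), and a median of 0.21 after median ratio scaling, which divides each library by its size factor. Size factors spanned 0.592 to 1.71 over all libraries, so counts are also given after this scaling where it moved them. The part of these differences in the results was not tested.

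The values used for the choice are given first, without a test. The NaCl over Control ratio at 24 h had a median of 2.47 and reached 10.2, and 13 of the 78 genes averaged below 1 TPM in Control 24 h. The Trehalose over Control ratio at 24 h ran from 0.364 to 1.29 with a median of 0.985. The words without trehalose response therefore cover 41 genes below 1, of which 3 lay at or below 0.5, and 62 genes from 1/1.3 to 1.3 times the control. After median ratio scaling, 78 of 78 genes kept a NaCl ratio of at least 2, with a median of 2.90, and 59 kept a trehalose ratio below 1.3. Summed over the set, TPM averaged 5622 ± 285 at NaCl 24 h and 1925 ± 214 at Control 24 h (SD, n = 3 each). The NaCl 24 h sums were 0.536% to 0.593% of all TPM.

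The 10 genes with the largest NaCl ratio at 24 h were g5545 (10.2), g2096 (6.35), g2444 (5.81), g7894 (5.65), g1556 (5.31), g378 (3.91), g876 (3.82), g12090 (3.67), g8993 (3.59) and g5351 (3.56). Their order rests in part on the added 1 TPM. Mean TPM at Control 24 h was 0.327 for g7894 and 0.503 for g2096, and 6.03 for g5545. The 10 genes differed widely in level. Mean TPM at NaCl 24 h was 546 ± 21.4 for g876, 306 ± 30.9 for g1556 and 6.26 ± 1.26 for g12090 (SD, n = 3 each). The highest levels of the set at NaCl 24 h were those of g876, g8995 (485 ± 31.1), g7012 (334 ± 30.9), g3732 (309 ± 23.7) and g1556.

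**Figure D1:**
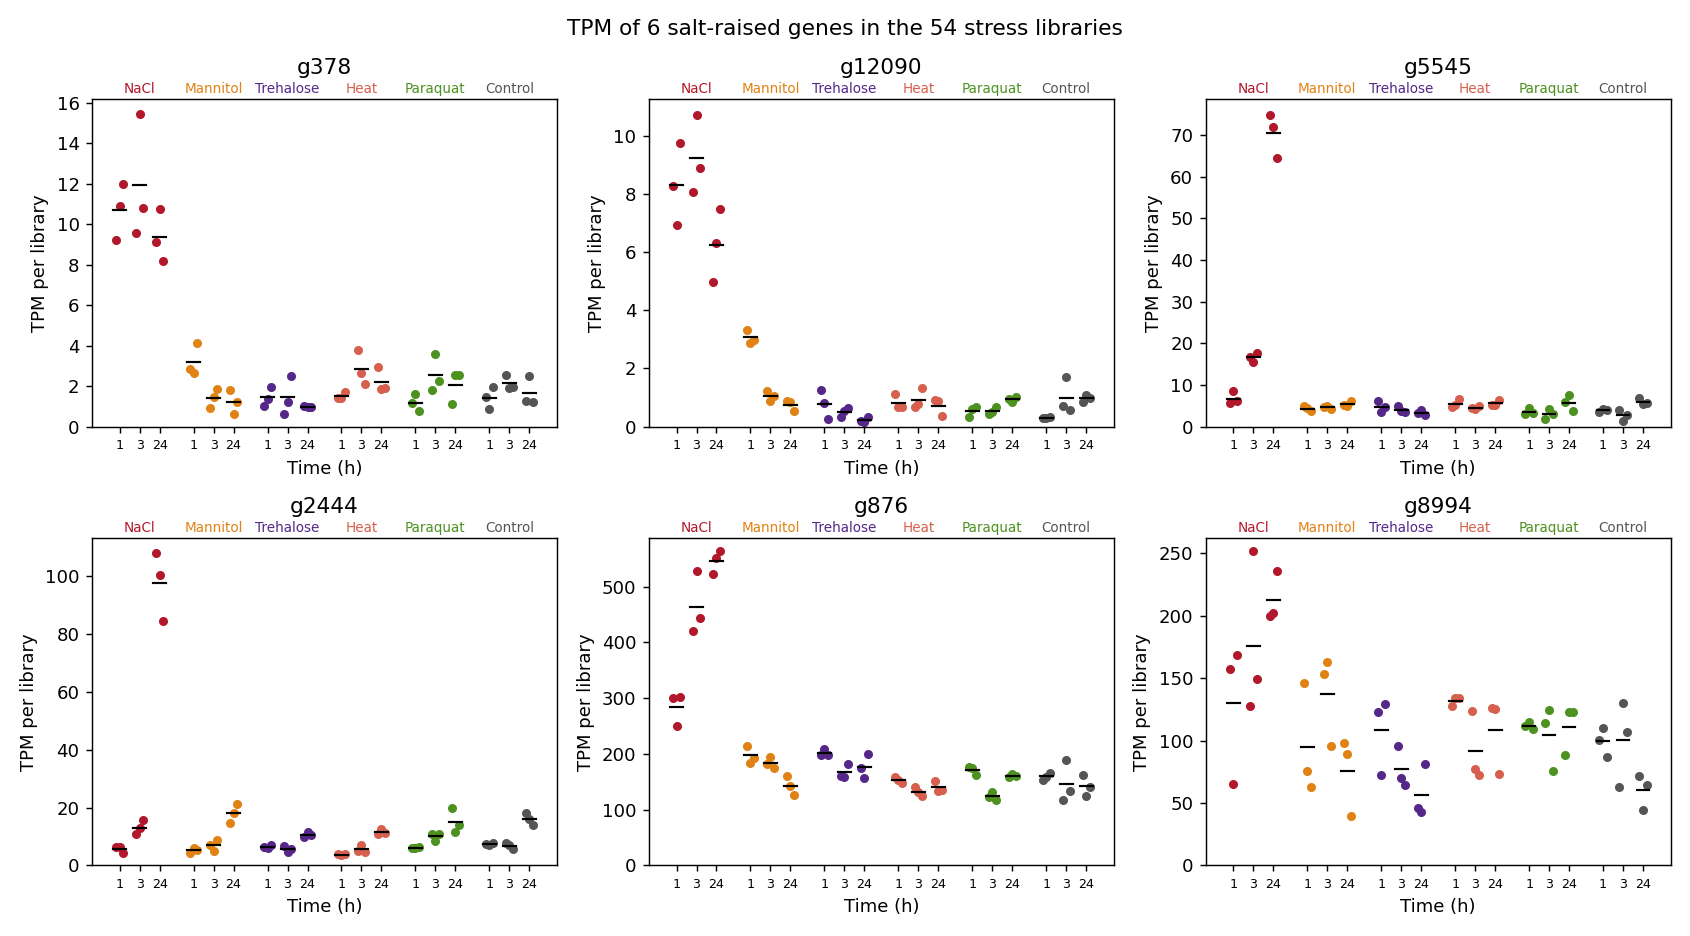
TPM of g378, g12090, g5545, g2444, g876 and g8994 in each of the 54 stress libraries (y axis, linear) by time in h within NaCl, Mannitol, Trehalose, Heat, Paraquat and Control (x axis); points are libraries and bars are means of 3. g378 and g12090 were high at each NaCl time, g5545 and g2444 were highest at NaCl 24 h, and the g8994 libraries of 1 group lay far apart, as at NaCl 1 h, where they held 157, 65.0 and 169 TPM.

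At 1 h, a few of the genes were already far above the control. A gene was called where its limma p, adjusted by Benjamini-Hochberg over the 9450 genes with a mean above 1 TPM, was under 0.05 and its fold change on the TPM + 1 scale above 2. All 78 genes passed that filter, as the choice required a mean of at least 1. For 4 of them, g7894, g12090, g7733 and g4602, the mean was above 1 TPM only with the NaCl libraries, and over the 75 libraries without NaCl it was 0.984, 0.907, 0.878 and 0.856 TPM. Their NaCl calls are therefore partly set by the filter. The Control 1 h libraries, used in every comparison at 1 h, had entered the choice through the limit on heat. With NaCl for 1 h, 9 of the 78 genes were called up, against 1.74% of all genes tested, and 0 were called down, against 10.4%. Without those 4 genes, 6 of 74 were called up, against 1.58% of all genes filtered in the same way. At an unadjusted p under 0.05, 2 of the 78 were lower, against 46.3% of all genes tested. The 5 largest rises were g12090, g7462, g7894, g378 and g2096, and the other 4 were g10646, g1556, g7733 and g6760, of which g6760 lost its call with any replicate left out.

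g12090 held 8.27, 6.93 and 9.74 TPM in NaCl 1 h libraries, against 0.30, 0.29 and 0.33 TPM in Control 1 h, a log2 change of 2.82 ± 0.18 (SE, adjusted p = 2.1e-16). g7462 held 9.61, 10.0 and 9.71 TPM, against 0.97, 0.70 and 1.27 TPM in Control 1 h (2.45 ± 0.19, adjusted p = 5.0e-14). g7894 held 13.3, 13.7 and 11.7 TPM, against 1.63, 1.27 and 1.94 TPM in Control 1 h (2.42 ± 0.19, adjusted p = 2.1e-13). In all 3 genes every NaCl library was far above every Control library. g378 held 9.23, 10.9 and 12.0 TPM, against 1.49, 0.86 and 1.96 TPM in Control 1 h (2.28 ± 0.25, adjusted p = 6.0e-10). g2096 held 6.12, 3.07 and 5.67 TPM, against 0.56, 0.34 and 0.78 TPM in Control 1 h (1.90 ± 0.24, adjusted p = 9.1e-09), its replicate 2 lying lowest among the NaCl libraries. The median log2 change of the 78 genes at 1 h was 0.34, against -0.33 over all genes tested, and 65 of the 78 values were above 0. The libraries hold RNA of whole cultures, so more cells with a transcript and more transcript per cell cannot be told apart.

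These early genes held their level for different lengths of time. g378 stayed at 9.56, 15.4 and 10.8 TPM at NaCl 3 h and 9.11, 10.8 and 8.20 TPM at NaCl 24 h. g7894, by contrast, held 8.11, 10.4 and 5.93 TPM at NaCl 3 h and 6.05, 6.53 and 6.90 TPM at NaCl 24 h, below every NaCl 1 h library. g7462 held 3.34, 2.52 and 3.53 TPM at NaCl 24 h, the lowest NaCl 24 h level of the 5 genes. After median ratio scaling 23 genes were called up at 1 h, against 3.45% of all genes tested, and without replicate 2 of both groups 14 were called up.

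At 3 h, 21 of the 78 genes were called up by limma, against 2.85% of all genes tested. None was called down, against 37.1%, and 0 of the 78 were lower at an unadjusted p under 0.05, against 64.9%. Without the 4 genes that passed the filter only with NaCl, 17 of 74 were called up, against 2.72%. The median log2 change was 0.70 over the 78 genes and -0.75 over all genes, and 78 of 78 genes lay above the median of all genes. The scale mattered here. After median ratio scaling, which brought the median of all genes to 0.00, 69 of the 78 genes were called up, against 12.1% of all genes tested, with a median log2 change of 1.52.

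The largest rise at 3 h was in g2096, which held 7.79, 13.9 and 9.15 TPM in NaCl libraries, against 0.31, 0.81 and 0.94 TPM in Control 3 h (2.73 ± 0.24, adjusted p = 2.4e-13). g12090 held 8.06, 10.7 and 8.89 TPM, against 0.71, 1.72 and 0.57 TPM in Control 3 h (2.39 ± 0.18, adjusted p = 2.9e-15). g5545 held 16.8, 15.4 and 17.7 TPM, against 4.00, 1.36 and 2.79 TPM in Control 3 h (2.31 ± 0.20, adjusted p = 4.7e-13). For all 3 genes the groups were well apart. g7462 (2.30 ± 0.19) and g7894 (2.28 ± 0.19) followed. The calls of g12090 and g7894 are partly set by the filter, which they passed only with the NaCl libraries. Of the abundant genes, g876 rose by 1.68 ± 0.11, with 420.4, 528 and 443 TPM in NaCl 3 h, against 118, 189 and 133 TPM in Control 3 h (adjusted p = 7.4e-17). g3732 rose by 1.43 ± 0.20 and g1556 by 1.61 ± 0.23. Of the 9 genes called up at 1 h, 8 were called up at 3 h as well, and 56 of the 78 genes were called up at neither time. Shares over all genes are not given beside these counts. The call for g6760 was the one not repeated: it held 4.90, 1.11 and 2.68 TPM at NaCl 3 h, against 1.84, 1.37 and 3.70 TPM in Control 3 h, and the groups overlapped.

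**Figure D2:**
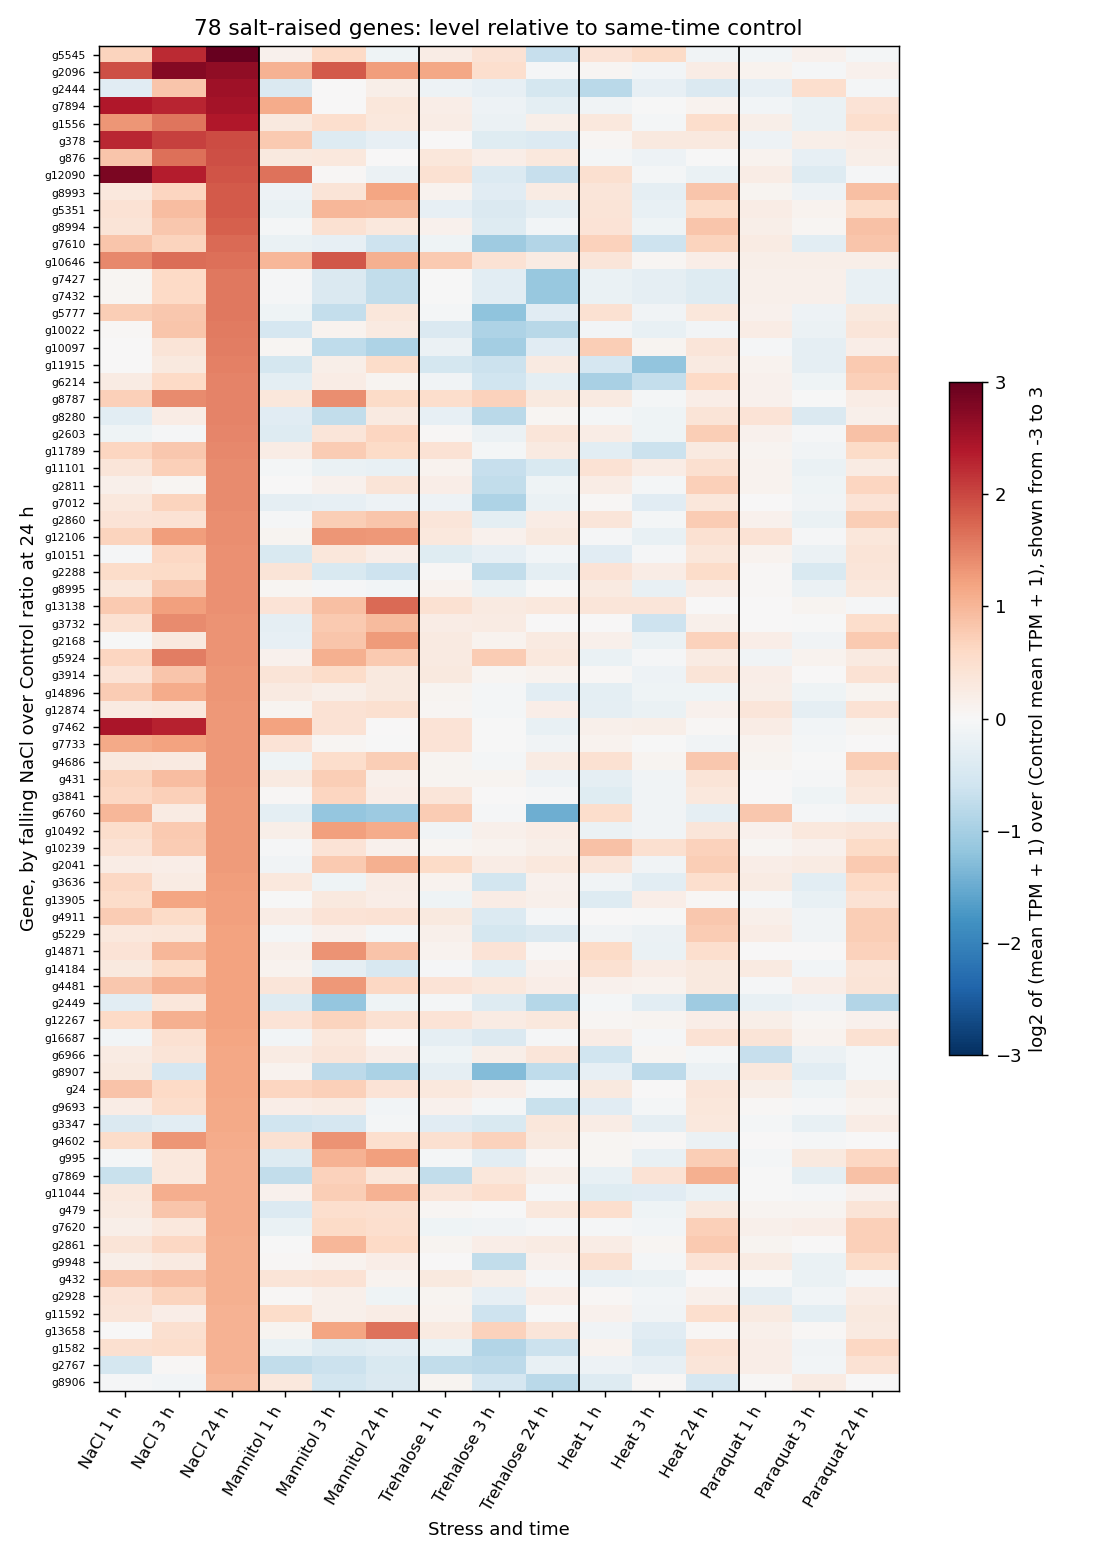
Level of each of the 78 genes (rows, by falling NaCl over Control ratio at 24 h) in each stress and time (columns), as log2 of group mean TPM + 1 over that of the same-time Control, from blue (lower) to red (higher). NaCl 24 h, Trehalose 24 h and Heat 1 h were used to choose the genes; in the other columns, red at NaCl 1 h was strongest in g12090, g7462, g7894 and g378, and Mannitol at 3 and 24 h held both red and blue rows.

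The mean NaCl level was highest at 24 h in 49 genes, at 1 h in 17 and at 3 h in 12. The choice asked for a raised level at NaCl 24 h and so favoured a peak there. With no share over all genes beside them, these counts describe the set only. In 8 genes, g5545, g2444, g7427, g7432, g6760, g2449, g8907 and g8906, mean TPM + 1 at NaCl 24 h was at least 2 times that at both earlier NaCl times. These genes were grouped after their values were seen, and their 24 h values entered the choice, so no test was made. g5545 held 74.9, 72.0 and 64.5 TPM at NaCl 24 h, 6.83, 5.45 and 5.80 TPM at Control 24 h and 5.70, 8.54 and 6.05 TPM at NaCl 1 h. g2444 held 108, 100.3 and 84.4 TPM at NaCl 24 h, against 18.1, 16.0 and 13.8 TPM at Control 24 h. At 1 h its level was 6.23, 6.36 and 4.47 TPM in NaCl and 7.26, 7.18 and 7.75 TPM in Control. At 3 h it was 10.8, 12.8 and 15.6 TPM in NaCl and 7.77, 7.01 and 5.77 TPM in Control, with every NaCl library above every Control library, but the log2 change of 0.84 ± 0.17 (SE, adjusted p = 4.9e-05) stayed below the fold limit of a call. g6760 held 17.5, 16.7 and 14.5 TPM at NaCl 24 h, against 5.67, 6.39 and 6.23 TPM at Control 24 h. In 5 of the 8 genes, mean TPM + 1 in untreated cells was itself at least 2 times higher at Control 24 h than at Control 1 h. g7427 showed both, with 226, 224 and 214 TPM at NaCl 24 h, and in untreated cells 73.4, 71.5 and 75.3 TPM at Control 24 h and 16.7, 17.4 and 15.0 TPM at Control 1 h. g7427 and g7432 had the same TPM in each of the 84 libraries, which may be near-identical copies that share reads, so they may count as 1 gene.

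A run of 3 neighbouring numbers, g8993, g8994 and g8995, belonged to the abundant members. g8993 held 257, 268 and 322 TPM at NaCl 24 h, against 87.0, 61.7 and 85.3 TPM at Control 24 h. g8994 held 199, 202 and 236 TPM at NaCl 24 h, against 71.5, 44.5 and 64.5 TPM at Control 24 h. g8995 held 453, 515 and 486 TPM at NaCl 24 h, against 193, 169 and 197 TPM at Control 24 h. The groups did not overlap in any of them, but these libraries chose the genes, so the gap describes them only. At 3 h none of the 3 was called, with log2 changes of 0.70 ± 0.33, 0.81 ± 0.35 and 0.81 ± 0.11 (SE). g8993 and g8994 moved together between replicates, as at Control 3 h, where g8993 held 83.1, 204 and 144 TPM and g8994 held 63.1, 130.2 and 107 TPM. The same order of replicates ran through many of the 78 genes, such as g7610 with 74.8, 215 and 146 TPM, so it was not particular to neighbouring numbers. Other pairs within 5 numbers of each other were g431 and g432, g2444 and g2449, g2860 and g2861, g7427 and g7432, and g8906 and g8907. Whether neighbouring numbers lie side by side on a chromosome was not examined here.

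The size of the NaCl ratio at 24 h depended on the group set beside it. In 61 of the 78 genes (78.2%) the mean of Control 24 h was below that of Control 1 h, against 75.6% of all genes tested, and in 60 (76.9%) it was below both Heat 24 h and Paraquat 24 h, against 75.7%. A low Control 24 h was thus about as common over all genes as in the set, and the choice itself used Control 24 h. Set against Control 1 h, mean TPM + 1 at NaCl 24 h was at least 2 times higher in 35 genes and lower in 4, with a median ratio of 1.91. The 4 lower genes were g11915, g995, g7620 and g13658. g11915 held 91.4, 93.2 and 116 TPM at NaCl 24 h, 38.2, 28.0 and 37.0 TPM at Control 24 h and 135, 145 and 109.7 TPM at Control 1 h. g13658 held 29.3, 29.9 and 33.3 TPM at NaCl 24 h, 16.2, 14.2 and 12.7 TPM at Control 24 h and 49.2, 45.9 and 41.8 TPM at Control 1 h. Against the other stresses at 24 h, NaCl was at least 2 times higher in 35 genes over Paraquat, 42 over Heat, 44 over Mannitol and 67 over Trehalose. The NaCl and trehalose limits of the choice largely set the count over Trehalose, where the lowest ratio was 1.61. Shares over all genes are not given for these counts. For 39 genes every NaCl 24 h library was above all 45 stress and control libraries without NaCl, against 3.02% of all genes tested. For 26 of these they were also above the 30 time-course libraries, against 1.31%. The values at NaCl 24 h, Control 24 h and Trehalose 24 h come from libraries that chose the genes, so they describe the set only.

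**Figure D3:**
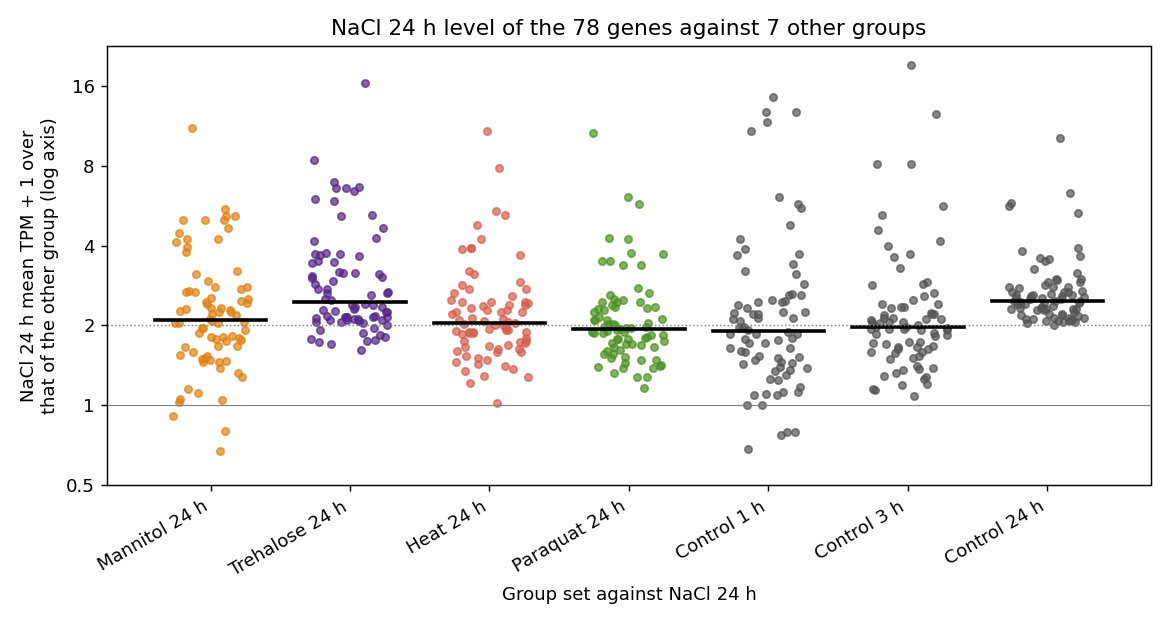
Ratio of mean TPM + 1 at NaCl 24 h to that of 7 other groups (log axis) for each of the 78 genes (points), with medians as bars; the dotted line marks 2. The median ratio was 2.10 over Mannitol 24 h, 2.46 over Trehalose 24 h, 2.04 over Heat 24 h, 1.95 over Paraquat 24 h, 1.91 over Control 1 h, 1.98 over Control 3 h and 2.47 over Control 24 h, the ratio that chose the genes. Trehalose 24 h had entered the choice as well.

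Mannitol, the other osmolyte besides the salt and trehalose, raised some of the genes. At Mannitol 1 h, 4 of the 78 genes were called up, against 0.434% of all genes tested, and none was called down by limma, against 3.39%, with 6 lower at an unadjusted p under 0.05, against 44.7%. The 4 were g12090, g7462, g7894 and g2096. They were also called up at NaCl 1 h, in a comparison that shares the Control 1 h libraries. How common this overlap was over all genes is not given. Without the 4 genes that passed the filter only with NaCl, 2 of 74 were called up, against 0.371%. g12090 held 3.33, 2.88 and 2.99 TPM at Mannitol 1 h, against 0.30, 0.29 and 0.33 TPM at Control 1 h (1.64 ± 0.18, adjusted p = 1.2e-09). Its level was 1.21, 0.89 and 1.07 TPM at Mannitol 3 h and 0.88, 0.84 and 0.54 TPM at Mannitol 24 h, near the control libraries of those times. Without Mannitol 1 h replicate 1, 2 genes were called up, and without Mannitol 1 h replicate 3, 1 was called down.

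At Mannitol 3 h, 13 of the 78 genes were called up, against 4.59% of all genes tested, and 2 were called down, g6760 and g2449, against 20.6%. After median ratio scaling 29 genes were called up, against 10% of all genes tested, and 1 down. Without replicate 1 of both groups 8 were called up, without Mannitol 3 h replicate 3 none was called down, and 1 was without Mannitol 3 h replicate 1, Control 3 h replicate 1 or Control 3 h replicate 3. The largest rises were in g10646 and g2096. g2096 held 5.50, 5.72 and 3.86 TPM at Mannitol 3 h, against 0.31, 0.81 and 0.94 TPM at Control 3 h (1.84 ± 0.24, adjusted p = 8.9e-09). g10646 held 4.44, 4.90 and 2.70 TPM at Mannitol 3 h, against 0.19, 0.47 and 0.47 TPM at Control 3 h (1.84 ± 0.24, adjusted p = 1.1e-08). Of the 21 genes called up at NaCl 3 h, 7 were also called up at Mannitol 3 h. The comparisons share the Control 3 h libraries, and the overlap over all genes is not given, so 7 of 21 is a description only.

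At Mannitol 24 h, 11 of the 78 genes were called up, against 8.46% of all genes tested, and 1 was called down, against 4.76%. The 11 were 14.1% of the set. The control of this comparison was one that chose the genes, and with Paraquat 24 h in its place 3 were called up and 3 down. No share over all genes is given for that reference or for the left-out libraries below, so whether these shifts were particular to the set is not shown. Without Mannitol 24 h replicate 2 or without Control 24 h replicate 2, 7 were called up, and without replicate 2 of both groups 5. The gene called down was joined by another without Mannitol 24 h replicate 1 or Control 24 h replicate 3, and none was called down without Mannitol 24 h replicate 2. The largest rises were in g13138 and g13658. g13138 held 43.5, 38.5 and 47.4 TPM at Mannitol 24 h, against 13.5, 12.8 and 11.4 TPM at Control 24 h (1.70 ± 0.11, adjusted p = 6.5e-16), a level above its 35.1, 35.2 and 32.1 TPM at NaCl 24 h. g13658 held 49.8, 44.6 and 45.2 TPM at Mannitol 24 h, against 16.2, 14.2 and 12.7 TPM at Control 24 h (1.63 ± 0.10, adjusted p = 2.5e-17). g12106 (1.27 ± 0.29), g2168 (1.26 ± 0.29) and g2096 (1.18 ± 0.24) came next. With Paraquat 24 h as the reference, g12106, g2168 and g8993 lost their calls, with log2 changes of 0.92, 0.47 and 0.26. g6760 fell, with 2.24, 0 and 4.77 TPM at Mannitol 24 h, against 5.67, 6.39 and 6.23 TPM at Control 24 h (-1.42 ± 0.39, adjusted p = 0.0026). One of its Mannitol 24 h libraries was listed at 0, and the groups did not overlap. Without replicate 2 of both groups the fall in g6760 was no longer called, with a log2 change of -0.68.

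**Figure D4:**
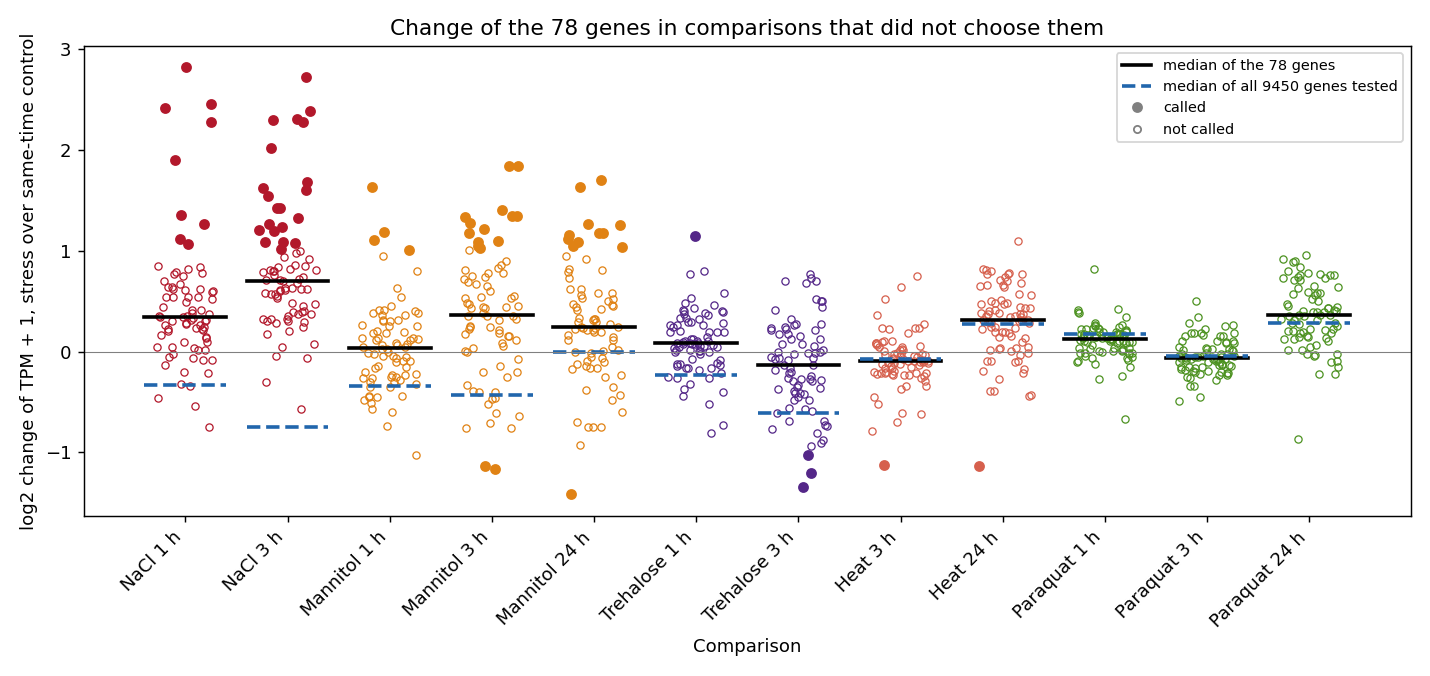
Fitted log2 change of TPM + 1 for each of the 78 genes (points; filled where called) in the 12 comparisons with a same-time Control that did not choose them, with the median of the 78 genes (black) and of all 9450 genes tested (dashed blue). At NaCl 3 h the medians were 0.70 and -0.75, and at Paraquat 24 h 0.36 and 0.29. Control 24 h, used at Mannitol, Heat and Paraquat 24 h, and Control 1 h, used at each 1 h comparison, had entered the choice.

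Trehalose at the times that did not enter the choice gave few calls in the set. At Trehalose 1 h, 1 gene was called up, against 0.677% of all genes tested. No gene was called down by limma, against 2.57%, with 4 lower at an unadjusted p under 0.05, against 37.8%. The gene called up was g2096, with 2.92, 1.48 and 3.13 TPM at Trehalose 1 h, against 0.56, 0.34 and 0.78 TPM at Control 1 h (1.14 ± 0.24, adjusted p = 1.5e-04). Its level was 0.29, 0.35 and 0.79 TPM at Trehalose 24 h, beside 0.50, 0.53 and 0.48 TPM at Control 24 h.

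At Trehalose 3 h none of the 78 genes was called up by limma, against 2.37% of all genes tested, with 10 (12.8%) higher at an unadjusted p under 0.05, against 9.98%. Called down were 3 genes, g10097, g5777 and g8907, against 27.8% of all genes. g10097 held 16.1, 15.3 and 18.8 TPM at Trehalose 3 h, against 31.5, 40.2 and 33.8 TPM at Control 3 h (-1.02 ± 0.13, adjusted p = 4.3e-09). After median ratio scaling, 7 of the 78 genes were called up, against 8.84% of all genes tested, and none was called down. Without Control 3 h replicate 1, 7 genes were called down, and without Control 3 h replicate 2 or Trehalose 3 h replicate 2, 1 gene was. Without Control 3 h replicate 3, 1 gene was called up. The median log2 change of the 78 genes was -0.14 and turned to 0.44 after the scaling, so the direction of the set at Trehalose 3 h depended on the scale.

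The osmolytes were also set against each other at 3 h, with no control library in the difference. The choice had asked for a rise with NaCl and little rise with trehalose at 24 h. It thus favoured genes higher in NaCl than in trehalose, and the counts over Trehalose 3 h are to be read with that in view. In NaCl 3 h over Trehalose 3 h, 28 of the 78 genes were called up, against 3.79% of all genes tested, and 75 of 78 log2 differences were above 0. After median ratio scaling 46 were called, against 6.23%. In NaCl 3 h over Mannitol 3 h, 15 genes were called up, against 1.92% of all genes tested, and after the scaling 29, against 4.53%. Without the 4 genes that passed the filter only with NaCl, 25 of 74 were called up over Trehalose 3 h, against 3.69%, and 12 over Mannitol 3 h, against 1.8%. In both contrasts 11 of the 78 genes were called up, a count for which no share over all genes is given. The median log2 difference was 0.85 over Trehalose and 0.33 over Mannitol, and over all genes -0.10 and -0.32. The contrasts share the NaCl 3 h libraries.

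The 5 largest differences from Trehalose 3 h were in g12090, g378, g7894, g7462 and g2096. Of these, g12090 and g7894 had passed the filter only with the NaCl libraries, so their calls are partly set by it. g12090 held 8.06, 10.7 and 8.89 TPM at NaCl 3 h, against 0.35, 0.55 and 0.63 TPM at Trehalose 3 h (2.76 ± 0.18, adjusted p = 2.3e-16). g378 held 9.56, 15.4 and 10.8 TPM at NaCl 3 h, against 0.62, 1.23 and 2.53 TPM at Trehalose 3 h (2.44 ± 0.25, adjusted p = 9.8e-11). Its level at Mannitol 3 h was as low, with 0.90, 1.48 and 1.86 TPM, and NaCl 3 h lay 2.42 ± 0.25 above it (adjusted p = 1.7e-10). g7894 also lay far above both of the other osmolytes, with 8.11, 10.4 and 5.93 TPM at NaCl 3 h, against 1.04, 1.17 and 0.53 TPM at Mannitol 3 h and 0.72, 0.71 and 0.63 TPM at Trehalose 3 h. g2096 differed from these, since 7.79, 13.9 and 9.15 TPM at NaCl 3 h stood against 5.50, 5.72 and 3.86 TPM at Mannitol 3 h, a log2 difference of 0.88 ± 0.24 that was not called, and 1.40, 1.37 and 1.40 TPM at Trehalose 3 h (2.20 ± 0.24, adjusted p = 2.5e-10).

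Heat and paraquat gave few calls, both in the set and over all genes tested. The choice had left out genes with a Heat over Control ratio of 2 or more at 1 h, which may lower the heat counts of the set. At Heat 3 h, 1 of the 78 was called, g11915, which fell (-1.12 ± 0.27, adjusted p = 0.0064), against 0.487% of all genes tested called in either direction. The call was lost without Control 3 h replicate 2 or Heat 3 h replicate 3. At Heat 24 h, 1 was called, g2449, which fell (-1.14 ± 0.41), against 1.79%. Without Heat 24 h replicate 3, 8 genes were called, and the call was lost when any of the other 5 libraries was left out. With paraquat limma called 0 of the 78 genes at any of the times. At Paraquat 1 h and 3 h it also called 0 of all 9450 genes tested, so those counts say nothing of the set. At an unadjusted p under 0.05, 4 genes passed at Paraquat 1 h, against 15.4% of all genes tested, and 4 at Paraquat 3 h, against 4.99%. At Paraquat 24 h 2.9% of all genes tested were called, and 37 of the 78 genes (47.4%) had an unadjusted p under 0.05, against 47.3% of all genes tested. After median ratio scaling, 0 of all genes were called up at Paraquat 24 h and 2 were called down. The median log2 change at Paraquat 24 h was 0.36 over the 78 genes and 0.29 over all genes. Without Paraquat 24 h replicate 1, 4 genes were called, without Control 24 h replicate 1 there was 1, and without replicate 1 of both groups 9. Shares over all genes are not given for the heat and paraquat counts with libraries left out.

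In the drying time course the genes were chosen to differ by less than 3 times between groups, so only their order is described. Summed TPM over the set averaged 2215 ± 50.2 at PreCondTre 24 h, the lowest group, and 3649 ± 330 at Rehydration 12 h, the highest (SD, n = 3 each), close to 3647 ± 79.0 at Rehydration 3 h. This order depended on the scale. The mean size factor was 0.801 at PreCondTre 24 h and 1.68 at Rehydration 12 h, and dividing by it reverses the order of their sums. The highest group was Rehydration 3 h for 18 genes, Rehydration 12 h for 17 and Rehydration 72 h for 16, and the lowest was PreCondTre 24 h for 31. These counts are of TPM without median ratio scaling, and shares over all genes are not given beside them. g876 held 407 ± 18.3 TPM at PreCondTre 24 h, 169.8 ± 8.68 TPM at Rehydration 3 h and 464 ± 38.6 TPM at Rehydration 12 h (SD, n = 3 each). g5545, the gene with the largest NaCl ratio when 1 TPM is added, held 1.67 ± 0.32 TPM at PreCondTre 48 h and 5.86 ± 2.14 TPM at Rehydration 72 h. The time course and the stress experiment came from separate studies, so their levels are not compared by a test.

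**Figure D5:**
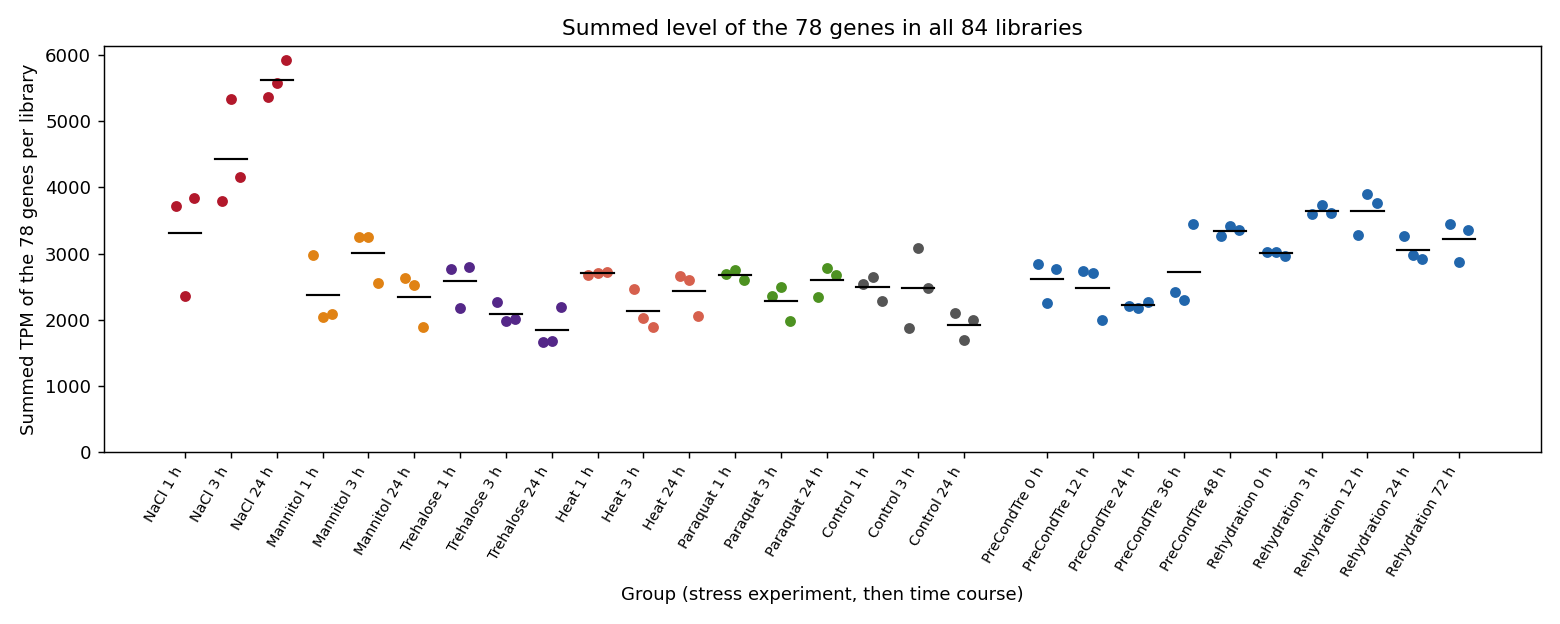
Summed TPM of the 78 genes in each of the 84 libraries (y axis, points) by group (x axis), with group means as bars, for NaCl, Mannitol, Trehalose, Heat, Paraquat and Control at 1, 3 and 24 h and for the time course. Sums at NaCl 24 h were 5364 to 5928, and in the time-course groups the means were 2215 to 3649.

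Among the 684 genes with a NaCl ratio of at least 2 at 24 h, 396 had a trehalose ratio of 1.3 or more. Of the 78 genes, 26.9% were called up at NaCl 3 h, against 32.3% of those 396. At Mannitol 24 h the shares were 14.1% of the 78 genes and 60.1% of the 396, and at Mannitol 3 h 16.7% and 45.5%. At Trehalose 3 h they were 0 of the 78 and 28.3% of the 396. A further 210 genes with a trehalose ratio below 1.3 were kept out by the heat or time-course limits, and of these 24.8% were called up at NaCl 3 h and 10.5% at Mannitol 24 h. At Mannitol 3 h 10% of the 210 were called up, and at Trehalose 3 h 0, as in the 78 genes. These shares are a description, since the trehalose ratio that parts the sets used the Control 24 h libraries. The 78 genes had also met the heat and time-course limits, which the 396 did not have to meet. As the time course includes preconditioning in trehalose, the sets differ in more than the trehalose ratio.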

How the data were processed

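RNA of Pv11 cells was sequenced in 84 libraries. The authors mapped the reads to the coding sequences of their gene set with Bowtie2, and estimated levels with RSEM, run through the utilities of Trinity. They deposited a single TPM table with 66333 transcripts, and all 84 columns were used. TPM includes a correction for length and a scaling to 1 total, so reads per library are unknown and no counting interval is given. The authors' tests on counts, with DESeq2 among the tools, were not repeated.

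TPM was summed per gene, and log2(TPM + 1) of the 9450 genes with a mean above 1 was fitted with limma 3.58.1 (R 4.3.3, trend, empirical Bayes), with 1 coefficient for each of the 18 stress groups. A gene was called where the fold change exceeded 2 and the limma p, after Benjamini-Hochberg adjustment, was under 0.05, and ± after a log2 value is its standard error. With 3 against 3 libraries, an exact permutation test cannot go below p = 0.10, so none was used. Comparisons that chose the genes were not tested. The members and lists were chosen with earlier results of these data known. Named genes follow a rule: the 10 largest NaCl ratios, the 5 largest rises at NaCl 1 h, NaCl 3 h and Mannitol 24 h, up to 3 falls at NaCl 3 h and Mannitol 24 h, the 5 highest levels at NaCl 24 h, the 5 largest differences from Trehalose 3 h, the genes at the limit and the run of neighbouring numbers. The others named were chosen after their values were seen. Of the gene IDs, 0 matched the RefSeq table, so lists by function could not be applied. Alternatives were a pseudocount of 0.1, all genes with any value above 0, no trend, only the 2 groups compared, median ratio scaling over 9254 genes above 0 in every library, the most abundant transcript, each replicate left out, a replicate block and Paraquat 24 h as reference. Leaving out each library alone, and leaving out of the counts the genes above the filter only through the NaCl libraries, were added after seeing the data. Shares over all genes are given for median ratio scaling and for the counts without those genes, and not for the other alternatives. Counts under the others therefore do not show whether a change was particular to the set. The fit was also run on simulated data, with errors drawn independently for each gene and library and no changed genes at low levels. That setting lacks the shifts that many genes share within a library. It therefore does not show how the fit handles them or genes near 1 TPM. Tables and plots used Python 3.11.15, pandas 2.3.3, numpy 2.4.6 and matplotlib 3.10.9.

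Same-numbered libraries were checked for pairing by the correlation of their deviations from group means: at Paraquat 1 h the 3 correlations were 0.15 to 0.17, and in no other comparison were all 3 above 0.1.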

Additional observations from a re-analysis of the deposited data

Results flagged for a closer look

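In the named members below, the response to NaCl and to another osmolyte differed at 3 h by the test of the difference itself. Some were named for a large value at NaCl 3 h or a large difference from Trehalose 3 h, so how many of the named genes passed says nothing of the set, for which the report gives the counts over all 78 genes. Over Mannitol 3 h, the log2 difference was 2.42 in g378, 2.31 in g12090, 2.25 in g7894, 1.86 in g7462, 1.64 in g5545, 1.33 in g876, 1.32 in g6760 and 1.08 in g1556. Over Trehalose 3 h it was 2.76 in g12090, 2.44 in g378, 2.41 in g7894, 2.35 in g7462, 2.20 in g2096, 1.81 in g5545, 1.74 in g1556, 1.60 in g7012, 1.46 in g876, 1.34 in g5351, 1.18 in g3732, 1.14 in g12106, 1.14 in g8994, 1.08 in g2444 and 1.00 in g8995. The genes had been chosen for a difference between NaCl and trehalose at 24 h in other libraries, and their direction at 3 h is to be read with that choice in view. For g12090 and g7894, which passed the filter only with the NaCl libraries, the differences are also partly set by the filter. The calls of g1556 and g6760 over Mannitol and of g2444, g8994, g8995 and g12106 over Trehalose were lost with a replicate left out. Groups of 3 libraries are too small for a check of single outlying libraries.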

How the results depend on the processing

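With median ratio scaling, under which the median log2 change of all genes at NaCl 3 h was 0.00 in place of -0.75, genes called up were 23 in place of 9 at NaCl 1 h, 69 in place of 21 at NaCl 3 h, 29 in place of 13 at Mannitol 3 h, 7 in place of 0 at Trehalose 3 h, 29 in place of 15 for NaCl over Mannitol and 46 in place of 28 for NaCl over Trehalose at 3 h, and genes called down were 1 in place of 2 at Mannitol 3 h and 0 in place of 3 at Trehalose 3 h. With a pseudocount of 0.1, 2 were called up at Trehalose 1 h, 3 at Trehalose 3 h and 1 was called at Paraquat 24 h. With the most abundant transcript, 1 was called up at Trehalose 3 h and 3 were called at Paraquat 24 h. With only the 2 groups compared, 0 were called down at Mannitol 24 h and 0 called at Heat 3 h and Heat 24 h, and 0 at Heat 24 h with all genes above 0 or with no trend. With Paraquat 24 h as reference, 3 were called up and 3 down at Mannitol 24 h. Without the 4 genes above the filter only through the NaCl libraries, 2 were called up in place of 4 at Mannitol 1 h. The cause was not tested.

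With a replicate or 1 library left out, genes called up were 8 to 14 at NaCl 1 h, 19 to 29 at NaCl 3 h, 2 to 5 at Mannitol 1 h, 8 to 19 at Mannitol 3 h, 5 to 16 at Mannitol 24 h, 0 to 1 at Trehalose 3 h, 12 to 18 for NaCl over Mannitol and 22 to 38 for NaCl over Trehalose. Genes called down were 0 to 1 at Mannitol 1 h, 0 to 2 at Mannitol 3 h, 0 to 2 at Mannitol 24 h and 1 to 7 at Trehalose 3 h, and genes called were 0 to 2 at Heat 3 h, 0 to 8 at Heat 24 h and 0 to 9 at Paraquat 24 h. No gene was called down at NaCl 1 h or NaCl 3 h in any of these. The replicate block gave the same counts as the fit without it in every comparison, such as 21 genes up at NaCl 3 h, and changed no call among the 58 log2 changes of named genes. Of 582 values of these changes under alternatives, 553 kept their call, 29 lost it and 0 reversed. The rule itself found 54 of the 78 genes again after scaling (with the limit of 150 then reached), 52 with the most abundant transcript, 42 with 0.1 added in place of 1 TPM, and 51 to 66 with a replicate left out. Reads per library are unknown, and 13 genes averaged below 1 TPM in Control 24 h, where their ratios rest on the added 1 TPM.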
